A study of Mus musculus with 18 samples.

Results

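The 10 genes of the FoxO pathway described here were measured in mouse ovaries with and without the phosphoinositide 3-kinase subunit p110 delta. They are the factors Foxo1 and Foxo3 and the target genes Pdk4, Cited2, Ccng2, Gadd45a, Gadd45b, Sesn1, Txnip and Klf2. Each gene was found by its symbol among probe sets annotated to that symbol alone, and the brightest probe set over all arrays stood for it. The 10 members had 23 probe sets in all, and 20 of these passed the filter on low signals. All 10 members were among the 12713 genes tested, of 18193 genes on the array.

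Total RNA of ovaries was hybridised to 18 Affymetrix Mouse Genome 430 2.0 arrays, with 3 biological replicates in each of 6 groups. All mice were 21-day-old females on a mixed C57B6J/S129 background. Pik3cd encodes p110 delta. The groups were Pik3cd-/- and Pik3cd+/- females 44 hours after 1 intraperitoneal injection of 10 IU PMSG, Pik3cd-/- and Pik3cd+/- females that had received 0.03 ml E2 3 times at 24 hour intervals and were dissected 72 hours after the first injection, and untreated Pik3cd-/- and Pik3cd+/- females. PMSG is a gonadotropin with FSH-like activity, and E2 is oestradiol. The control genotype carried 1 intact copy of Pik3cd, so none of the 6 groups was wild type, and none is labelled as injected with vehicle alone, so an effect of injection or of elapsed time cannot be told apart from that of the hormone. The labels name no tissue-restricted promoter or Cre for the mutation, and the concentration of E2 is not given in the sources used here.

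FoxO proteins are forkhead transcription factors that are held out of the nucleus when Akt, acting downstream of phosphoinositide 3-kinase, phosphorylates them. In the nucleus they switch on genes of cell cycle arrest, stress resistance, DNA repair and fuel metabolism. In the mouse ovary Foxo3 is known for keeping primordial follicles dormant in the oocyte, and Foxo1 is abundant in granulosa cells, where FSH opposes it through the same kinase pathway. The activity of FoxO proteins is set largely by phosphorylation and location, which an expression array does not measure.

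The promoters of the genes whose signals differed most, and of those that hold a FoxO-type motif, are shown so that the motifs can be read beside the values. They come from RefSeq annotation on GRCm38.p6 and run 5′ to 3′ from 250 bases before to 50 bases after the annotated start. Capitals mark matches, on either strand, of the FoxO motif GTAAACA, of its variant with the letters CAAAACA, and of the NF-Y motif CCAAT.
Pdk4, chr6:5496229-5496528, minus strand: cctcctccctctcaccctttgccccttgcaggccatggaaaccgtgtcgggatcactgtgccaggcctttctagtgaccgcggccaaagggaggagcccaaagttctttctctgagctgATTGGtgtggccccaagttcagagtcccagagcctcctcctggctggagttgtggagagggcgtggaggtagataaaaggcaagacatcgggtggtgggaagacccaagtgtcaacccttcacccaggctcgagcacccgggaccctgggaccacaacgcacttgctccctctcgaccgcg
Gadd45b, chr10:80929841-80930140, plus strand: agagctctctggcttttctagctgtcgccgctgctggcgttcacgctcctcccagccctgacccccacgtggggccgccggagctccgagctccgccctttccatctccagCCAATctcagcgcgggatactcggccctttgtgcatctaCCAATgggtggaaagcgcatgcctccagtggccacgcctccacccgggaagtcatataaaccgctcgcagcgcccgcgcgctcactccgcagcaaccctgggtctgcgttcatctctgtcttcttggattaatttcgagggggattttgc
Txnip, chr3:96557707-96558006, plus strand: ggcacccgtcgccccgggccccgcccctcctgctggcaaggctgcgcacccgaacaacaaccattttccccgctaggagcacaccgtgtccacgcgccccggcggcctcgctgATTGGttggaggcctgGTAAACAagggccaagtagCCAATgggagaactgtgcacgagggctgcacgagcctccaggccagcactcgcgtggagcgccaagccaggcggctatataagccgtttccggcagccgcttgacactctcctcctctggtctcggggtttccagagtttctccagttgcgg
Ccng2, chr5:93267323-93267622, plus strand: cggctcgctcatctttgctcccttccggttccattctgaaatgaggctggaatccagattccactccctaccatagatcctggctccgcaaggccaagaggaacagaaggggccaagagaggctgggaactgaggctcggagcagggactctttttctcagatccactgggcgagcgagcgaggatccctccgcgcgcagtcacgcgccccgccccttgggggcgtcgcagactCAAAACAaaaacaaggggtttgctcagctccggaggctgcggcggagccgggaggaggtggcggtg
Sesn1 site, chr10:41810585-41810613, plus strand: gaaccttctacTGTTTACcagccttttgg

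GTAAACA is the core FoxO recognition motif and CAAAACA a variant of it in the insulin response elements of FoxO target genes. All 10 members matched the RefSeq promoter table, with 11 promoters because Sesn1 has 2. GTAAACA, searched on both strands, was present in 2 of the 11, at -121 from the Txnip start on the plus strand and at 22 from the Sesn1 start on the minus strand. CAAAACA was present in 1, at -16 from the Ccng2 start. The same windows held GTAAACA in 3.65% and CAAAACA in 6.28% of 32851 mouse promoters. CCAAT, the NF-Y motif, was present in 7 of the 11 member promoters, belonging to 6 members, and in 37.4% of all promoters. The Gadd45b window held CCAAT 2 times, the Txnip window 2 times and the Pdk4 window 1 time, counting both directions. These are matches of letters in a window, with no measurement of binding.

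Some arrays stood apart by markers of tissue that can adhere to a dissected ovary. Pik3cd-/- E2 replicate 2 had a summed signal of 394 over 4 adipocyte markers, against 3934 and 11020 on the other two arrays of its group. The same array had 1425 summed over 11 macrophage markers, against 4121 and 6428 in its group mates. Oviduct markers summed to 4851 in Pik3cd+/- PMSG replicate 1 and to 2711 in Pik3cd+/- untreated replicate 2, against 395.3 to 967.5 on the other 16 arrays. Values without these arrays are given for several of the member results below, but not for every result that rests on them. The tissue label held: the granulosa markers Foxl2 and Inha had signals of 2168 to 3777 and 7929 to 13420 over all arrays. The arrays had median signals of 48.43 to 50.88, and an array's mean correlation with its group mates between 0.989 and 0.997. Of 6 Pik3cd probe sets, 1 that passed the filter was lower in Pik3cd-/- ovaries in every state, at 23.5 ± 3.02 in Pik3cd-/- against 69.7 ± 2.08 in Pik3cd+/- ovaries after PMSG (SD, n = 3 each), 22.4 ± 4.59 against 70.4 ± 3.19 after E2 and 26.2 ± 2.52 against 67.1 ± 4.95 without treatment. A dimmer one under the filter gave means of 13.59 against 20.85, 12.73 against 26.83 and 13.29 against 22.42, with no overlap. The brightest gave 3126 against 3972 after PMSG, 3382 against 2739 after E2 and 3608 against 3115 untreated, and was not called.

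Signals below are deposited intensity units on a linear scale. Differences are log2 of the signal plus a small constant, ± the standard error of a limma model over all 18 arrays. Adjusted p-values are limma's, corrected over 12713 genes, and genes under 0.05 are called. They measure the spread between these arrays. Gene positions are those of RefSeq on GRCm38.p6. Since whole ovaries were measured, fewer cells of a type and less RNA per cell cannot be told apart.

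**Figure D1:**
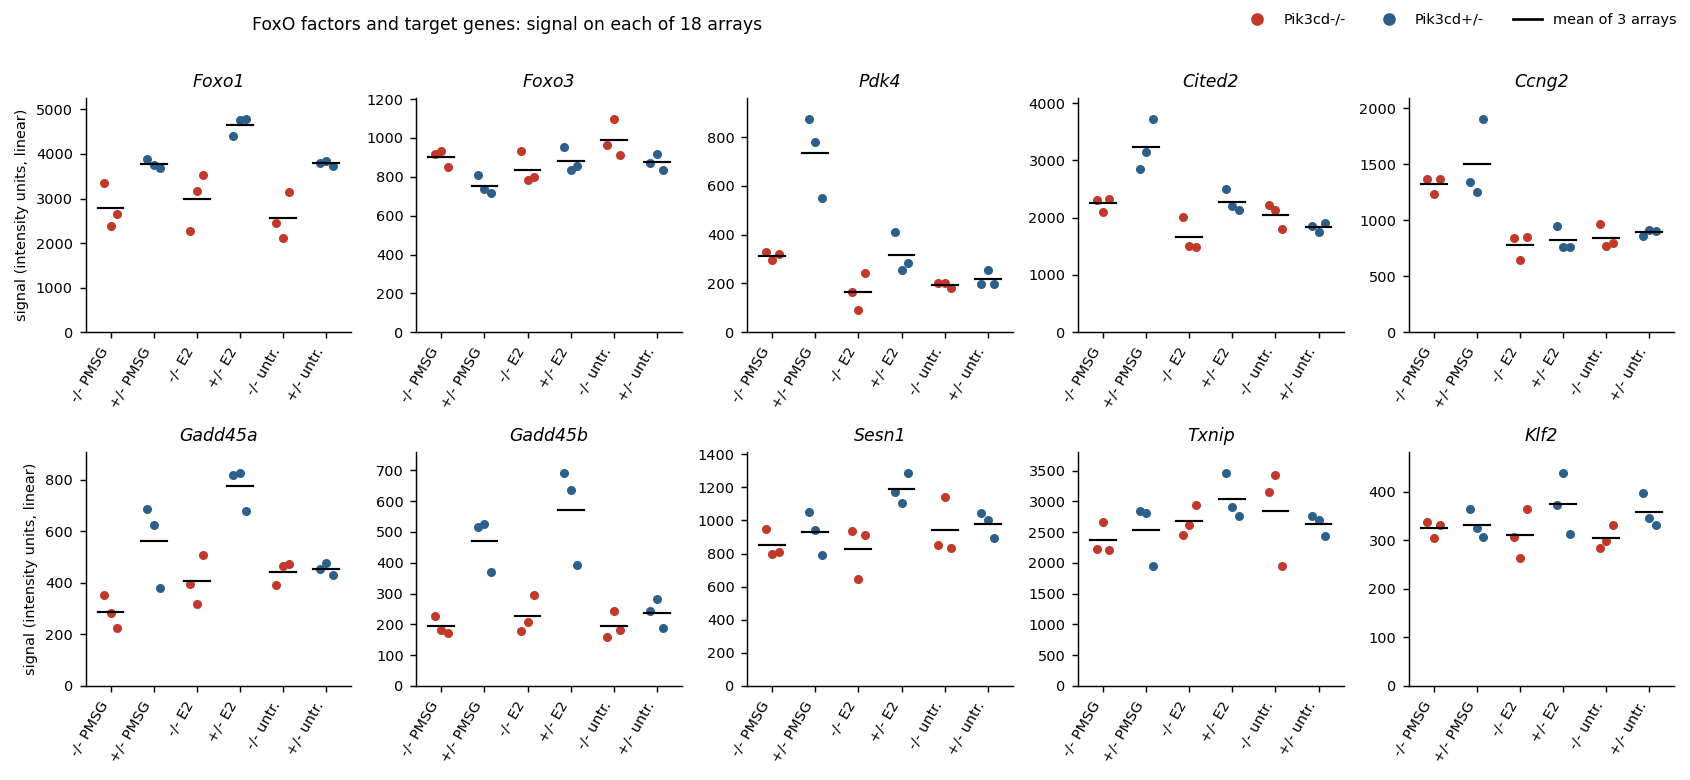
Signal (linear intensity units, y axis from 0) of the 10 genes on each of the 18 arrays; points are single arrays (replicates 1 to 3 from left to right), black lines are means of 3, red is Pik3cd-/- and blue Pik3cd+/-. Foxo1 lies lower on all Pik3cd-/- arrays than on the Pik3cd+/- arrays of the same state, and Pdk4, Cited2, Gadd45a and Gadd45b do so after PMSG and after E2.

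Foxo1 was lower in Pik3cd-/- ovaries. Foxo1 (chr3:52268337-52350109), the FoxO factor of granulosa cells, gave 3353, 2373 and 2648 on the Pik3cd-/- PMSG arrays, against 3893, 3753 and 3694 on the Pik3cd+/- PMSG arrays. After E2 it gave 2263, 3177 and 3526 in Pik3cd-/-, against 4411, 4754 and 4779 in Pik3cd+/- ovaries. Without treatment it gave 2450, 2104 and 3136 in Pik3cd-/-, against 3787, 3837 and 3735 in Pik3cd+/- ovaries. In each of the 3 states every Pik3cd-/- array lay under every Pik3cd+/- array, and the Pik3cd-/- arrays spread far more widely: the coefficient of variation was 20.5% in untreated Pik3cd-/- and 1.34% in untreated Pik3cd+/- ovaries. The genotype difference averaged over the 3 states was -0.56 ± 0.09 (adjusted p = 0.00046), a fold of 0.677. By state it was -0.66 ± 0.16 after E2 (adjusted p = 0.0131), -0.45 ± 0.16 after PMSG (adjusted p = 0.122) and -0.58 ± 0.16 without treatment (adjusted p = 0.0595), so only the E2 difference passed in a single state. Without Pik3cd-/- E2 replicate 1 the E2 difference was -0.47 (adjusted p = 0.0645).

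Both other Foxo1 probe sets that passed the filter were also lower in Pik3cd-/- ovaries. Their average differences were -0.74 and -0.73 (adjusted p = 0.000272 and 0.000344 over 23789 probe sets), and after E2 -1.03 and -0.92 (adjusted p = 0.00398 and 0.00771). In untreated ovaries they gave -0.76 and -0.80 (adjusted p = 0.0508 and 0.047). The order of Foxo1 levels put Pik3cd+/- E2 first at 4648, clear of untreated Pik3cd+/- at 3786 and Pik3cd+/- PMSG at 3780, which overlapped each other. The 3 Pik3cd-/- groups followed at 2989 after E2, 2791 after PMSG and 2563 untreated, and overlapped one another. Foxo1 passed no hormone comparison by the model used throughout: the PMSG effect was 0.13 in Pik3cd-/- and 0.00 in Pik3cd+/- ovaries, and the E2 effect 0.22 and 0.29. The E2 effect in Pik3cd+/- ovaries was called with only the groups compared and with array weights (lowest limma adjusted p = 0.0166). These fits called 6.01% and 28.8% of all genes, against 1.62% by the model used throughout.

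Foxo3 (chr10:42181845-42276695), the factor that holds primordial follicles dormant, was called in no comparison by the model used throughout, and its 6 group means lay within a factor of 1.31 of each other. It gave 914.8, 931.5 and 851.2 in Pik3cd-/- ovaries after PMSG, against 807.7, 737.7 and 717.8 in Pik3cd+/- ovaries. These arrays did not overlap, and the difference was 0.25 ± 0.09 (adjusted p = 0.128). After E2 the values were 931.8, 781.6 and 797.4 in Pik3cd-/- and 952.1, 835.4 and 855.3 in Pik3cd+/- ovaries, and untreated they were 961.2, 1096 and 911.6 against 872.1, 914.8 and 836.7. The average genotype difference was 0.12, with a 95% interval of 0.01 to 0.22 and an adjusted p of 0.0983. With quantile normalization that p was 0.0433, where 27.4% of all genes were called. With array weights Foxo3 was called higher in Pik3cd-/- ovaries after PMSG (adjusted p = 0.0487) and lower after PMSG than untreated in Pik3cd+/- ovaries (adjusted p = 0.0151). Weights called 22.6% and 50.7% of all genes in these comparisons, against 4.13% and 17.7% by the model used throughout. The dimmer Foxo3 probe set fell after PMSG in Pik3cd+/- ovaries, by 0.41 (adjusted p = 0.0177), where the brightest gave -0.21 ± 0.09 (adjusted p = 0.105).

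In the genotype comparison after PMSG, 4 of the 10 members were called lower in Pik3cd-/- ovaries and none higher. Of all genes tested, 1.05% were lower, 3.08% higher and 4.13% different in either direction. After E2, 6 members were called lower and none higher, where 12% of all genes were lower, 4.85% higher and 16.8% different. In the average of the 3 states 6 were lower, against 15.9% lower, 11.8% higher and 27.7% in either direction of all genes. In untreated ovaries no member was called, and 2.17% of all genes were called, 1.34% lower and 0.834% higher. At an unadjusted limma p under 0.05 there was 1 member of 10, beside 20.4% of all genes. With array weights 1 member, Foxo1, and 6.8% of all genes passed, and Foxo1 also passed with quantile normalization and on its probe set of highest variance. Quantile normalization and the choice of highest variance called 3.34% and 1.65% of all genes. With 1 array left out the share of all genes ran from 0.00787%, without untreated Pik3cd+/- replicate 2, to 5.32%, without untreated Pik3cd-/- replicate 3, where Foxo1 passed. The members' median difference was -0.30 after PMSG, -0.50 after E2 and -0.08 untreated, beside medians over all genes of 0.01, -0.07 and -0.01. Single arrays of the genotypes did not overlap for 6 members after PMSG (27.9% of all genes), 6 after E2 (33.4%) and 2 untreated (26.5%).

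**Figure D2:**
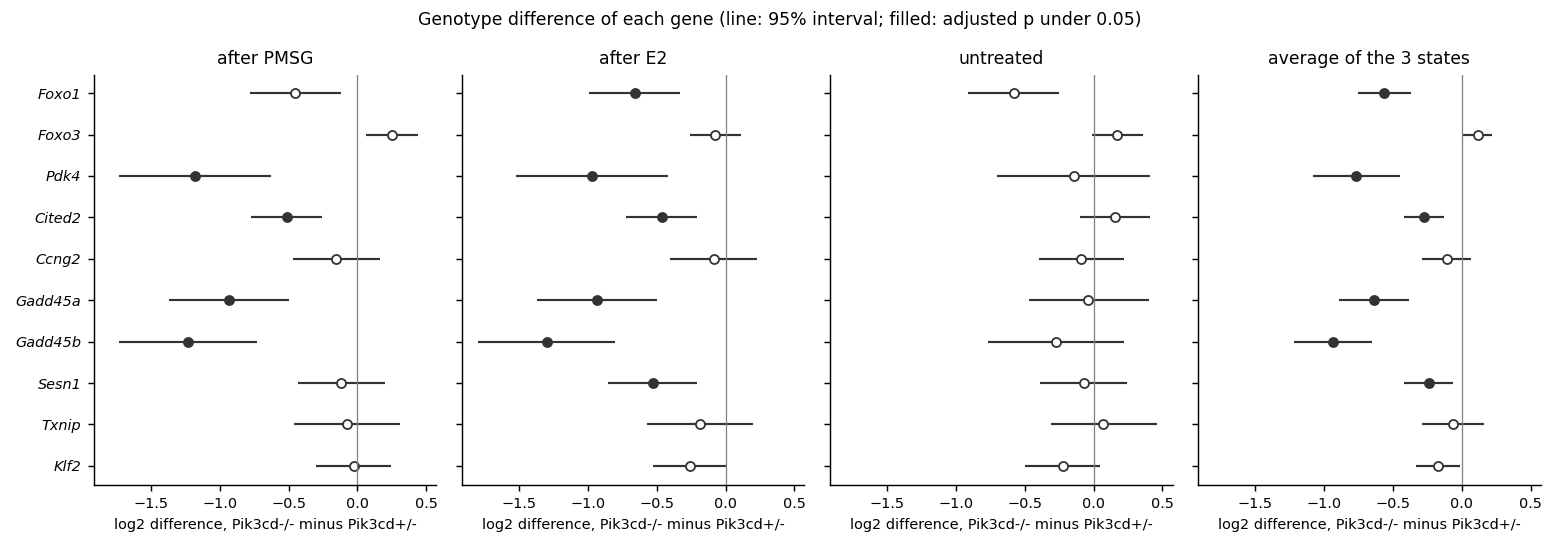
Log2 difference (x axis, Pik3cd-/- minus Pik3cd+/-) of each gene after PMSG, after E2, without treatment and averaged over the 3 states; lines are 95% intervals of the limma model and filled points have an adjusted p under 0.05. Gadd45b, Gadd45a, Pdk4 and Cited2 are filled and left of 0 after each hormone and unfilled without treatment, while Foxo1 lies left of 0 in every state.

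Among the 10 members Gadd45b had the largest genotype difference after PMSG, after E2 and in the average, while untreated that was Foxo1. Gadd45b (chr10:80930091-80932204), a stress-induced protein that promotes growth arrest and DNA demethylation, gave 227.9, 182.6 and 172.2 in Pik3cd-/- ovaries after PMSG, against 516.7, 525.2 and 368.8 in Pik3cd+/- ovaries. After E2 it gave 177.5, 206.2 and 294.4 in Pik3cd-/-, against 692.1, 635.5 and 391.2 in Pik3cd+/- ovaries. Untreated values were 159.4, 242.2 and 182.6 in Pik3cd-/- and 242.6, 281.9 and 187.5 in Pik3cd+/- ovaries. The genotypes were apart after each hormone and overlapped without treatment. The difference was -1.23 ± 0.23 after PMSG (adjusted p = 0.01), -1.30 ± 0.23 after E2 (adjusted p = 0.00382) and -0.28 ± 0.23 untreated (adjusted p = 0.536). In folds, Pik3cd-/- ovaries had 0.426 of the Pik3cd+/- level after PMSG and 0.406 after E2. The second probe set gave -1.31 and -1.33 (adjusted p = 0.00278 and 0.00152), and the dimmest -0.32 and -0.63 (adjusted p = 0.146 and 0.00398).

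Its relative Gadd45a (chr6:67035096-67037407), which also acts in growth arrest and DNA repair, had 1 probe set. After PMSG it gave 352.6, 282.4 and 224.7 in Pik3cd-/-, against 685.5, 624.7 and 381.6 in Pik3cd+/- ovaries, and after E2 395.5, 318.8 and 509.2 against 817.5, 827.2 and 679.5. Untreated values were 391.9, 463.6 and 474.4 in Pik3cd-/- and 453.7, 476.0 and 432.3 in Pik3cd+/- ovaries. Again the genotypes were apart after each hormone and overlapped without treatment. The difference was -0.94 ± 0.20 after PMSG and -0.93 ± 0.20 after E2 (adjusted p = 0.0203 and 0.0101), and -0.04 ± 0.20 untreated (adjusted p = 0.936). Over the 18 arrays Gadd45a and Gadd45b correlated at r = 0.837, and at r = 0.73 after group means were removed. That correlation describes these arrays, which share group structure.

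Pdk4 (chr6:5483351-5496278), the kinase that shuts pyruvate dehydrogenase and spares glucose, gave 327.7, 296.0 and 319.6 in Pik3cd-/- ovaries after PMSG, against 873.0, 779.7 and 551.2 in Pik3cd+/- ovaries. After E2 it gave 166.7, 89.81 and 243.3 in Pik3cd-/-, against 411.4, 255.6 and 285.1 in Pik3cd+/- ovaries. Untreated it gave 200.5, 201.1 and 182.0 in Pik3cd-/- and 199.2, 254.3 and 198.5 in Pik3cd+/- ovaries. Groups were apart after each hormone and overlapped without treatment. The difference was -1.18 ± 0.26 after PMSG (adjusted p = 0.0208), -0.97 ± 0.26 after E2 (adjusted p = 0.0221) and -0.15 ± 0.26 untreated (adjusted p = 0.793). The 3 Pik3cd-/- E2 arrays took the same order in Pdk4 as in the adipocyte markers, whose sums were 3934, 394 and 11020 in replicates 1 to 3, and in the macrophage markers, with 4121, 1425 and 6428. Without replicate 2 the Pdk4 difference after E2 was -0.60 (adjusted p = 0.0737), and without replicate 1 it was -1.02 (adjusted p = 0.06). Pdk4 also followed the adipocyte order in Pik3cd+/- PMSG and untreated Pik3cd-/- ovaries, but not in Pik3cd-/- PMSG ovaries. The order was reversed in Pik3cd+/- E2 ovaries (adipocyte sums 1718, 4843 and 2427) and untreated Pik3cd+/- ovaries (2407, 2170 and 5652). Pdk4 followed the macrophage order in both untreated groups and Pik3cd+/- PMSG ovaries, but not in Pik3cd-/- PMSG or Pik3cd+/- E2 ovaries. The part of adhering tissue in the Pdk4 difference was not tested.

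Cited2 (chr10:17723228-17725674), a co-regulator that binds CBP and p300, gave 2313, 2100 and 2333 in Pik3cd-/- ovaries after PMSG, against 2842, 3141 and 3719 in Pik3cd+/- ovaries. After E2 it gave 2004, 1502 and 1483 in Pik3cd-/- and 2498, 2197 and 2134 in Pik3cd+/- ovaries. Untreated, Pik3cd-/- ovaries gave 2216, 2132 and 1806 and Pik3cd+/- ovaries 1852, 1752 and 1907. The genotypes were apart after each hormone, and untreated the Pik3cd-/- mean was the higher. The difference was -0.52 ± 0.12 after PMSG (adjusted p = 0.0267), -0.46 ± 0.12 after E2 (adjusted p = 0.0193) and 0.15 ± 0.12 untreated (adjusted p = 0.493). The other Cited2 probe set gave -0.56 in both states (adjusted p = 0.0559 after PMSG and 0.023 after E2). Without Pik3cd-/- E2 replicate 2 the E2 difference was -0.40 (adjusted p = 0.0655).

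With 1 array left out at a time, between 0 and 3 of the 4 members stayed called after PMSG, and the count over all genes fell as well, to between 82 and 384 against 525 (0.645% to 3.02%). None stayed called without Pik3cd-/- PMSG replicate 2 or replicate 3. The differences without replicate 2 were -1.14 for Pdk4, -0.47 for Cited2, -0.94 for Gadd45a and -1.19 for Gadd45b, and without replicate 3 they were -1.19, -0.54, -0.78 and -1.15. Without Pik3cd+/- PMSG replicate 1, the array with the high oviduct sum, they were -1.04 for Pdk4, -0.60 for Cited2, -0.78 for Gadd45a and -1.16 for Gadd45b, with adjusted p = 0.0983, 0.0362, 0.1 and 0.0539. Without Pik3cd+/- PMSG replicate 2 only Gadd45b stayed called, and without Pik3cd-/- PMSG replicate 1 only Gadd45a and Gadd45b. With the replicate number as a block within the PMSG arrays all 4 were called, and 2.64% of all genes. After E2, 3 of 6 members stayed called without Pik3cd-/- E2 replicate 2, the array low in adipocyte markers: Foxo1 at -0.72, Gadd45a at -0.77 and Gadd45b at -1.25 (adjusted p = 0.0247, 0.039 and 0.0137). Also 3 stayed called without Pik3cd+/- E2 replicate 1. With a model of only the E2 groups none of the 6 passed, and their adjusted p lay between 0.0572 and 0.139. Of all genes 9.99% were called without Pik3cd-/- E2 replicate 2, 5.83% without Pik3cd+/- E2 replicate 1 and 0.763% with only the E2 groups. The model used throughout called 16.8%. In the average of the 3 states Foxo1, Pdk4, Cited2, Gadd45a and Gadd45b were called under every alternative and with any array left out.

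Sesn1 was the sixth member called after E2, and its probe sets disagreed. Sesn1 (chr10:41810574-41908436) encodes sestrin 1, a stress protein that restrains mTORC1. Its brightest probe set gave 934.1, 645.1 and 910.6 in Pik3cd-/- ovaries after E2, against 1170, 1108 and 1288 in Pik3cd+/- ovaries, a difference of -0.53 ± 0.15 (adjusted p = 0.0265). Another gave 744.2, 635.9 and 867.3 in Pik3cd-/- against 344.6, 530.0 and 738.4 in Pik3cd+/- ovaries, a difference of 0.53 (adjusted p = 0.275), and the one remaining gave 0.07 (adjusted p = 0.789). The call therefore rests on 1 of 3 probe sets, and it was lost without Pik3cd-/- E2 replicate 2, at -0.36 (adjusted p = 0.103), without any of the 3 Pik3cd+/- E2 arrays, at -0.58 to -0.47, and with quantile normalization. In the average of the 3 states the brightest probe set gave -0.24 ± 0.09 (adjusted p = 0.0488), and the other two 0.03 and -0.07. That call held in 4 of 9 other settings and in 6 of 18 fits with 1 array left out. After PMSG that probe set gave 946.6, 795.7 and 812.3 in Pik3cd-/- and 1050, 942.9 and 790.7 in Pik3cd+/- ovaries, and untreated 850.1, 1139 and 833.6 against 1045, 1002 and 896.3, with overlap in both.

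**Figure D3:**
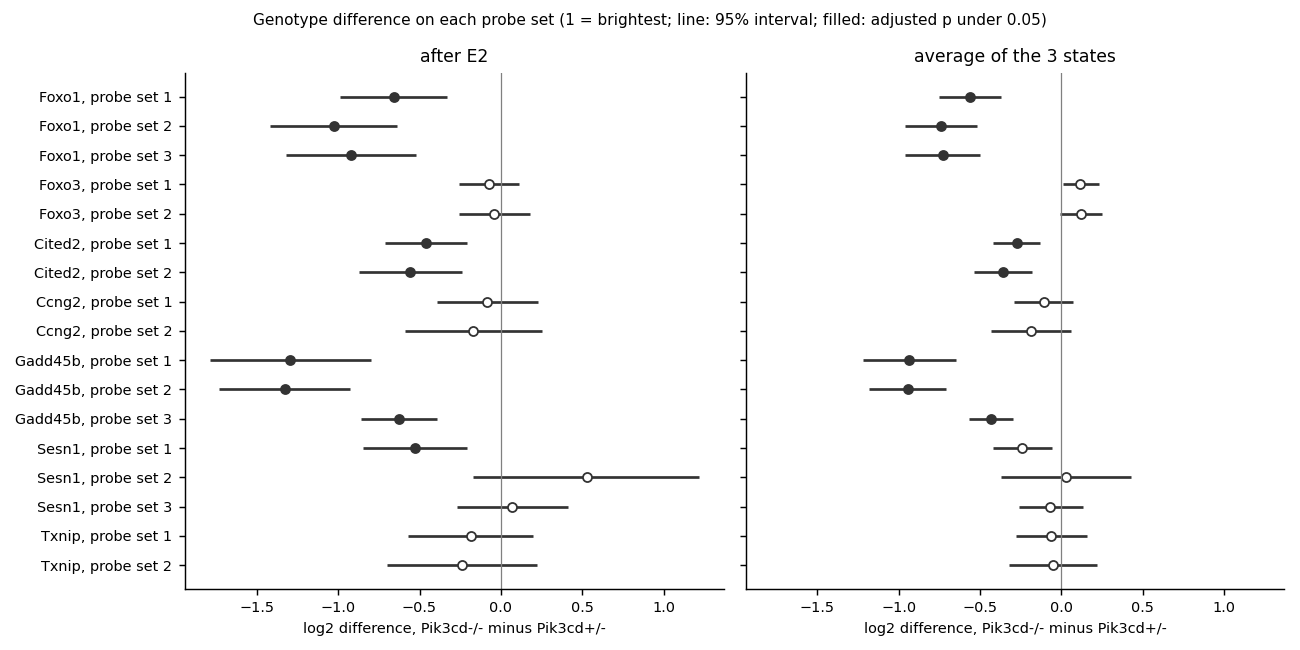
Log2 difference (x axis, Pik3cd-/- minus Pik3cd+/-) on every probe set that passed the filter, for the 7 members with more than 1, after E2 and averaged over the 3 states; lines are 95% intervals and filled points have an adjusted p under 0.05 over 23789 probe sets, where the brightest Sesn1 probe set misses the threshold in the average (0.0525). All Foxo1, Cited2 and Gadd45b probe sets lie left of 0, and those of Sesn1 lie on both sides after E2.

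PMSG raised 4 of the 10 members in Pik3cd+/- ovaries: Pdk4, Cited2, Gadd45b and Ccng2. Of all genes 5.81% rose, 11.9% fell and 17.7% changed in either direction. In Pik3cd-/- ovaries PMSG raised 1 member, Ccng2, where 1.71% of all genes rose, 0.684% fell and 2.39% changed. E2 raised 1 member, Gadd45b, in Pik3cd+/- ovaries, where 1.18% of all genes rose, 0.44% fell and 1.62% changed. In Pik3cd-/- ovaries E2 changed none of the 10 by the limma test, and 0.0551% of all genes changed, 0.00787% rising and 0.0472% falling. At an unadjusted limma p under 0.05 there were 2 members of 10 for this comparison, beside 14.6% of all genes. No member was called lower after either hormone. Treated and untreated arrays did not overlap for 7 members after E2 in Pik3cd+/- ovaries (28.7% of all genes) and for 0 after E2 in Pik3cd-/- ovaries (13.3%). After PMSG they did not overlap for 3 members in Pik3cd-/- (26.8%) and for 5 in Pik3cd+/- ovaries (40% of all genes).

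The rise of Pdk4 after PMSG was 1.70 ± 0.26 in Pik3cd+/- ovaries, 3.25-fold (adjusted p = 0.00104), and 0.67 ± 0.26 in Pik3cd-/- ovaries (adjusted p = 0.183). On the signal scale Pik3cd+/- ovaries averaged 734.6 ± 165.6 after PMSG and 217.3 ± 32.02 untreated, and Pik3cd-/- ovaries 314.4 ± 16.48 and 194.5 ± 10.84 (SD, n = 3 each). In both genotypes every PMSG array lay above every untreated one. Cited2 rose after PMSG by 0.81 ± 0.12 in Pik3cd+/- ovaries (1.75-fold, adjusted p = 0.000853), beside 0.14 ± 0.12 in Pik3cd-/- ovaries (adjusted p = 0.564). Gadd45b rose by 0.96 ± 0.23 in Pik3cd+/- ovaries (1.95-fold, adjusted p = 0.0131) and gave 0.01 ± 0.23 in Pik3cd-/- ovaries. Its call was lost without Pik3cd+/- PMSG replicate 1, the array high in oviduct markers, at 0.89 (adjusted p = 0.0508), and without replicate 2, at 0.88 (adjusted p = 0.054). Pdk4 and Cited2 stayed called whichever array was left out. Gadd45b rose after E2 by 1.22 ± 0.23 in Pik3cd+/- ovaries (2.33-fold, adjusted p = 0.0178) and gave 0.20 ± 0.23 in Pik3cd-/- ovaries (adjusted p = 0.691). That call was lost when any of 4 arrays was left out: Pik3cd+/- E2 replicate 1 or 2, or untreated Pik3cd+/- replicate 1 or 3, although the change stayed between 1.06 and 1.24 in these fits.

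Ccng2 (chr5:93267573-93276231) rose after PMSG in both genotypes. It encodes cyclin G2, an unusual cyclin that goes with cell cycle arrest. The Pik3cd-/- PMSG arrays gave 1370, 1232 and 1364, against 965.6, 765.4 and 800.9 on the untreated Pik3cd-/- arrays. The Pik3cd+/- PMSG arrays gave 1343, 1248 and 1901, against 862.2, 913.2 and 906.3 on the untreated Pik3cd+/- arrays. All 6 PMSG arrays lay above all 6 untreated ones. The rise was 0.65 ± 0.15 in Pik3cd-/- and 0.71 ± 0.15 in Pik3cd+/- ovaries (adjusted p = 0.0288 and 0.00559). The difference of these effects was -0.07, with a 95% interval of -0.51 to 0.37. The Pik3cd-/- call was lost in 5 of 6 leave-one-out fits, at 0.58 to 0.70, all but that without untreated Pik3cd-/- replicate 1, and the dimmer Ccng2 probe set gave 0.62 and 0.55 (adjusted p = 0.12 and 0.0704). After E2 the values were 845.5, 647.6 and 846.4 in Pik3cd-/- and 951.9, 760.6 and 763.5 in Pik3cd+/- ovaries, which overlapped the untreated ones.

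**Figure D4:**
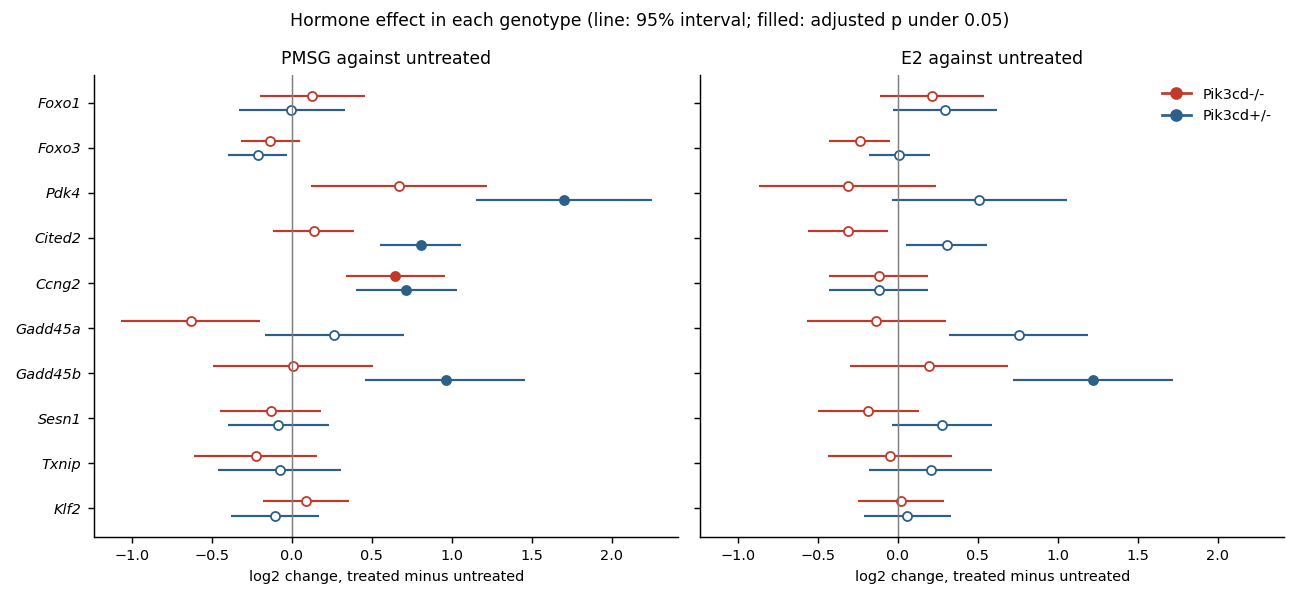
Log2 change (x axis, treated minus untreated) of each gene after PMSG and after E2 in Pik3cd-/- (red, upper) and Pik3cd+/- (blue, lower) ovaries; lines are 95% intervals and filled points have an adjusted p under 0.05. After PMSG the Pdk4, Cited2, Ccng2 and Gadd45b points are filled in Pik3cd+/- and only that of Ccng2 in Pik3cd-/- ovaries, and after E2 only that of Gadd45b in Pik3cd+/- ovaries is filled.

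The hormone effects themselves were then compared between the genotypes. By limma no member, and 0% of the 12713 genes, passed this test for PMSG or for E2. At an unadjusted p under 0.05 there were 4 members and 1194 of all genes for PMSG, and 5 members and 924 for E2. The PMSG effect in Pik3cd-/- minus that in Pik3cd+/- ovaries was -1.03 for Pdk4 (95% interval -1.81 to -0.25, adjusted p = 0.415), -0.67 for Cited2 (-1.03 to -0.31, adjusted p = 0.348), -0.90 for Gadd45a (-1.51 to -0.28, adjusted p = 0.395) and -0.96 for Gadd45b (-1.66 to -0.25, adjusted p = 0.413). The E2 effect differed by -0.82 for Pdk4 (-1.60 to -0.04), -0.62 for Cited2 (-0.97 to -0.26), -0.89 for Gadd45a (-1.51 to -0.28), -1.02 for Gadd45b (-1.73 to -0.32) and -0.46 for Sesn1 (-0.91 to -0.01), with adjusted p between 0.509 and 0.683. With array weights 3 members (Pdk4, Cited2 and Gadd45a) and 4.13% of all genes passed for PMSG. A missed threshold does not show that the responses were equal. The genotype differences after a hormone and the hormone effects share arrays, as do both hormone effects of a genotype with its untreated ovaries.

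Gadd45a had effects of opposite sign in the genotypes after both hormones, with no call in any of the 4 comparisons by the model used throughout. With array weights all but the E2 effect in Pik3cd-/- ovaries were called. The limma adjusted p for PMSG was then 0.0424 in Pik3cd-/- and 0.00801 in Pik3cd+/- ovaries. Of all genes, weights called 5.92% for PMSG in Pik3cd-/- ovaries, and 50.7% for PMSG and 28.8% for E2 in Pik3cd+/- ovaries. The shares by the model used throughout were 2.39%, 17.7% and 1.62%. Without weights the PMSG effect on Gadd45a was -0.63 ± 0.20 in Pik3cd-/- (adjusted p = 0.114) and 0.27 ± 0.20 in Pik3cd+/- ovaries (adjusted p = 0.39). After E2 it gave -0.14 ± 0.20 in Pik3cd-/- and 0.76 ± 0.20 in Pik3cd+/- ovaries (adjusted p = 0.752 and 0.0734). The mean signal was 286.6 ± 64.04 in Pik3cd-/- PMSG ovaries and 774.7 ± 82.62 in Pik3cd+/- E2 ovaries (SD, n = 3 each), the lowest and the highest of the 6 groups.

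Txnip and Klf2 were called in no comparison by the model used throughout. Txnip (chr3:96557957-96561857) encodes a protein that binds thioredoxin and limits glucose uptake, and Klf2 (chr8:72319062-72321654) a Krüppel-like factor of endothelium and resting T cells. Txnip ranged from 1941 to 3463 over the 18 arrays, and its genotype difference averaged over the states was -0.06, with a 95% interval of -0.29 to 0.16. The Txnip promoter, which holds the GTAAACA match, thus belongs to a gene whose signal did not pass any test here. Klf2 ranged from 264.0 to 438.6, with an average genotype difference of -0.17 (-0.33 to -0.01, adjusted p = 0.0968), which passed with array weights and without E2 replicate 3 of either genotype. Of all genes 41.2% passed with array weights, 31.1% without the Pik3cd-/- and 28.7% without the Pik3cd+/- replicate, against 27.7% by the model used throughout. By state the Klf2 difference was -0.03 after PMSG (-0.30 to 0.24), -0.26 after E2 (-0.53 to 0.01) and -0.23 untreated (-0.50 to 0.05).

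Markers of ovarian cell types differed along with several of these genes. The summed signal of 11 oocyte markers was 19550 to 22030 in Pik3cd-/- and 8892 to 10200 in Pik3cd+/- ovaries after PMSG, 15750 to 28750 and 11160 to 12640 after E2, and 24980 to 30100 and 17160 to 18370 untreated. Of the 11 markers 10 were called higher in Pik3cd-/- ovaries after PMSG, 11 after E2 and 5 untreated. The same sum was lower after PMSG in Pik3cd+/- ovaries, where 8 of 11 markers fell. The 10 granulosa markers summed to 40840 to 41250 in Pik3cd-/- and 34910 to 45560 in Pik3cd+/- ovaries after PMSG, with none called. Between genotypes 2 of the 10 were called higher in Pik3cd-/- ovaries after E2 (Kitl and Wt1) and 1 untreated (Kitl). In the average Kitl, Wt1 and Foxl2 were higher and Fshr and Amh lower in Pik3cd-/- ovaries. The granulosa sums were 34850 to 41880 in Pik3cd-/- and 35970 to 36540 in Pik3cd+/- ovaries after E2, and 27770 to 39820 and 36560 to 39850 untreated. After PMSG 5 of 11 macrophage markers rose in Pik3cd+/- ovaries and 0 in Pik3cd-/- ovaries, with median changes of 0.92 and 0.31. Their sum was 3300 to 4205 on the Pik3cd-/- PMSG arrays against 2322 to 4773 on the untreated Pik3cd-/- arrays, and 2657 to 5235 against 1926 to 2185 in Pik3cd+/- ovaries. Of 8 genes taken as theca and steroidogenic markers 3 rose after PMSG in Pik3cd-/- ovaries, and 5 rose and 1 fell in Pik3cd+/- ovaries. Their sum was 38230 to 43960 in Pik3cd-/- PMSG ovaries against 19210 to 26010 untreated, and 35860 to 45530 against 21890 to 25170 in Pik3cd+/- ovaries. The listed marker Insl3 was replaced by a probe set under its synonym Rlf (mean signal 337). That probe set may measure another gene, and these counts and sums include it. The part of cell makeup in the FoxO gene differences was not tested.

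Immediate early genes, which respond within minutes to stimulation or to handling of tissue, moved in the same direction as Gadd45b. After PMSG in Pik3cd+/- ovaries 11 of 12 tested rose, and after E2 4 of 12, where 5.81% and 1.18% of all genes rose. In Pik3cd-/- ovaries 1 of 12 rose after PMSG and 0 after E2, where 1.71% and 0.00787% of all genes rose. Compared with Pik3cd+/- ovaries, 3 of 12 were lower in Pik3cd-/- ovaries after PMSG, 5 after E2 and 1 untreated. The shares of all genes called lower were 1.05%, 12% and 1.34%. The summed signal of the immediate early genes was 4267 to 5016 in Pik3cd-/- and 5729 to 8570 in Pik3cd+/- ovaries after PMSG, 3528 to 3931 and 5739 to 6307 after E2, and 3597 to 4497 and 4201 to 5123 untreated. Within the Pik3cd+/- PMSG group replicate 3 was lowest in this sum and in Gadd45a, Gadd45b and Pdk4, and highest in Cited2 and Ccng2. The part of handling or stimulation in the Gadd45 differences was not tested.

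**Figure D5:**
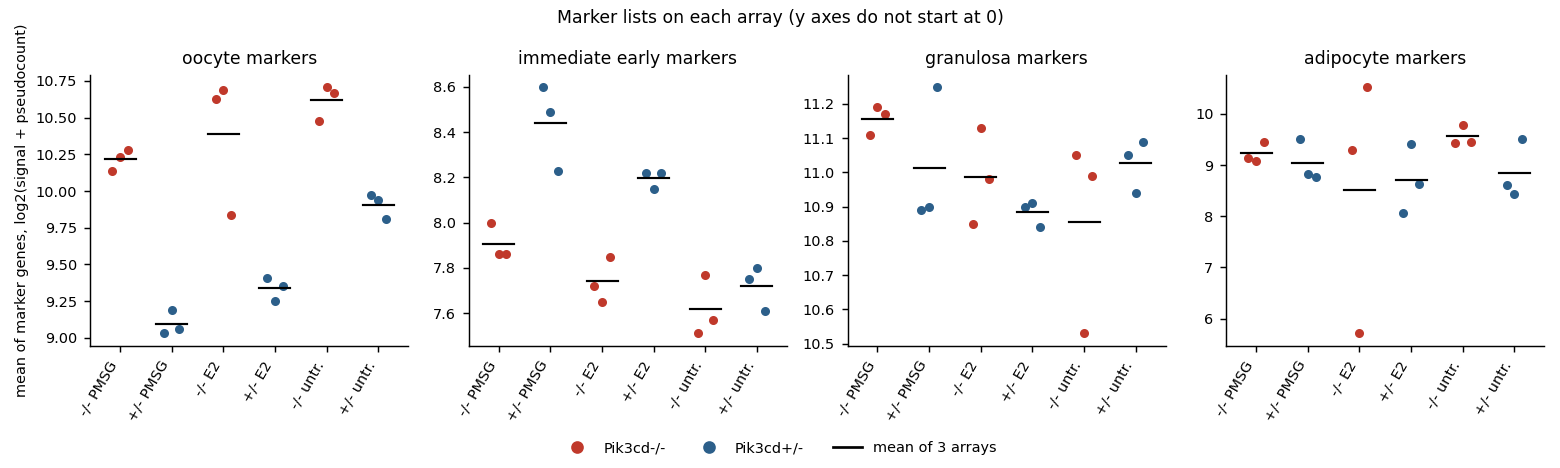
Mean of marker genes (y axis, log2 of signal plus the constant, not from 0) for oocyte, immediate early, granulosa and adipocyte lists on each of the 18 arrays; points are arrays (replicates 1 to 3 from left to right), black lines are means of 3, red is Pik3cd-/- and blue Pik3cd+/-. Within each state oocyte markers are higher on the Pik3cd-/- than on the Pik3cd+/- arrays. Immediate early genes are lower on the Pik3cd-/- arrays after each hormone, and 1 Pik3cd-/- E2 array is far below the rest in adipocyte markers.

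Other genes of the pathway were counted from lists of regulators and targets. Foxo4, the other FoxO factor tested, gave an average genotype difference of -0.17 ± 0.06 (adjusted p = 0.0467) and passed no single state. Of 21 upstream regulators 18 were tested. After PMSG Sgk3, a kinase related to Akt, rose in both genotypes, by 0.54 ± 0.12 in Pik3cd-/- and 0.57 ± 0.12 in Pik3cd+/- ovaries (adjusted p = 0.0245 and 0.00615). In Pik3cd+/- ovaries Pik3r1, the p85 alpha regulatory subunit, rose by 0.51 ± 0.15 (adjusted p = 0.0311), and the deubiquitinase Usp7 fell by 0.33 (adjusted p = 0.00825). Between genotypes Akt2 was higher in Pik3cd-/- ovaries after PMSG, by 0.28 ± 0.07 (adjusted p = 0.0422, not called with the replicate block within the PMSG arrays), and the kinase Stk4 after E2, by 0.43 ± 0.12 (adjusted p = 0.0245). In the average of the states Inpp5d (0.24) and Stk4 (0.23) were higher and Sgk3 (-0.22) and Akt1 (-0.10) lower in Pik3cd-/- ovaries. The shares of the 18 called were 5.56% after PMSG and after E2 and 22.2% in the average between genotypes, beside 4.13%, 16.8% and 27.7% of all genes, and 5.56% in Pik3cd-/- and 16.7% in Pik3cd+/- ovaries for PMSG, beside 2.39% and 17.7%. No regulator changed after E2 in either genotype.

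Of 44 other FoxO target genes 39 were tested, and those called between genotypes were all lower in Pik3cd-/- ovaries: 2 after PMSG, 7 after E2 and 6 in the average, with none untreated. As shares of the 39 these were 5.13%, 17.9% and 15.4%, beside 1.05%, 12% and 15.9% of all genes called lower, so the share in the average was near that of all genes. Irs2, the insulin receptor substrate that FoxO factors induce, averaged 98.7 ± 3.16 in Pik3cd-/- and 151 ± 16.6 in Pik3cd+/- ovaries after PMSG, and 98.8 ± 9.48 and 181 ± 6.33 after E2 (SD, n = 3 each). Its difference was -0.57 ± 0.11 after PMSG and -0.83 ± 0.11 after E2 (adjusted p = 0.0107 and 0.00113). Klf6, another Krüppel-like factor, gave -0.76 ± 0.15 and -0.65 ± 0.15 (adjusted p = 0.0109 and 0.0121). After E2 Igfbp1 (-1.09), the pro-apoptotic Bcl2l11 (-0.79) and the autophagy kinase Ulk1 (-0.32) were lower too (adjusted p = 0.00557, 0.0108 and 0.0176). The median difference of the 39 was -0.12 after PMSG and -0.10 after E2, beside 0.01 and -0.07 for all genes. The count after PMSG was 0 without Pik3cd-/- PMSG replicate 2 or without Pik3cd+/- PMSG replicate 1. Of all genes 0.645% and 1.09% were called in these fits in either direction, against 4.13% by the model used throughout. The count after E2 was 6 without Pik3cd-/- E2 replicate 2, 3 without Pik3cd+/- E2 replicate 1 and 1 with a model of only the E2 groups. The shares of all genes called in either direction were then 9.99%, 5.83% and 0.763%, against 16.8% by the model used throughout.

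Among these targets PMSG raised 4 and lowered 2 in Pik3cd+/- ovaries and changed none in Pik3cd-/- ovaries. The 6 were 15.4% of the list, where 17.7% of all genes changed in Pik3cd+/- and 2.39% in Pik3cd-/- ovaries. The cell cycle inhibitor Cdkn1a rose by 0.63 ± 0.11, Trp53inp1 by 0.55 ± 0.09 and Klf4 by 0.59 ± 0.17 (adjusted p = 0.00266, 0.00164 and 0.0277). Cyclin D2, encoded by Ccnd2 and needed for granulosa cell division, fell by 0.43 (adjusted p = 0.0275). Tsc22d3, a glucocorticoid-induced gene, rose by 0.42 ± 0.13 (adjusted p = 0.0361). The count of 6 was 2 when Pik3cd+/- PMSG replicate 1 or 2, or untreated Pik3cd+/- replicate 1 or 2, was left out. Of all genes 6.85% to 9.16% were called in these fits, against 17.7% by the model used throughout. E2 raised Rbl2, a pocket protein of the cell cycle, by 0.59 ± 0.11 and the insulin receptor Insr by 0.42 ± 0.10 in Pik3cd+/- ovaries (adjusted p = 0.0167 and 0.042), and changed none in Pik3cd-/- ovaries.

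By profile over the 18 arrays, the genes most like Foxo1 were Adamts6, Ank3 and Cables1 (r = 0.95, 0.948 and 0.945), all highest in Pik3cd+/- E2 ovaries. Those most like Foxo3 were Prkd2, Cdon and Tspan5 (r = 0.918, 0.913 and 0.869), highest in untreated Pik3cd-/- ovaries. Those most like Pdk4 were Pros1, Kat2b and Adam9 (r = 0.953, 0.935 and 0.921), highest in Pik3cd+/- PMSG ovaries. Each was the best of 12713 genes and describes these arrays only. Among the members themselves, Pdk4 and Cited2 correlated at r = 0.826 over the arrays and at -0.02 once group means were removed, while Cited2 and Ccng2 kept r = 0.659 of 0.779.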

How the data were processed

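Ovarian RNA of 18 animals or pools, as the labels give no more than biological replicates, was measured on 18 one-colour arrays. The deposited table holds 1 linear intensity per probe set and array, made with MAS5 per the submitters' processing notes; its version and the scaling are not given in the sources used here. Of 45101 probe sets, 64 controls, 9160 without a symbol and 932 with several were left out. Values were taken as log2(intensity + 8.58), the constant being the 10th percentile of all values. The brightest probe set stood for each of 18193 genes, and 12713 had at least 1 group mean above the overall median of 5.87. limma 3.58.1 in R 4.3.3 fitted 6 group means with a mean-dependent prior, with 12 residual and 3.66 prior degrees of freedom. P-values were adjusted by Benjamini-Hochberg over the 12713 genes in each of 10 comparisons. All 10 members are named in every comparison, and of the other pathway lists up to 5 called genes with the smallest adjusted p. The members and lists were chosen with earlier results of these data known. The number of arrays limits the precision. Alternatives were pseudocounts of 1 and 64, other filters, quantile normalization, no trend, only the groups compared, the replicate number as a block, the most variable probe set, array weights, and each array left out. Counts of the other lists under these alternatives were added after seeing the data. The fit was tested on simulated data, and replicate numbers were checked for pairing. The deviations of same-numbered arrays from their group means correlated at 0.251 to 0.295 between the genotypes after PMSG, against -0.258 to -0.04 for other numbers, and not in all 3 pairs of any other 2 groups.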

Additional observations from a re-analysis of the deposited data

Results flagged for a closer look

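The E2 effect on Cited2 had opposite signs in the genotypes. Relative to the mean of the untreated arrays of the same genotype, the 3 Pik3cd-/- E2 arrays lay at -0.46 to -0.03 and the 3 Pik3cd+/- E2 arrays at 0.22 to 0.44 on the log2 scale. The difference of the effects was -0.62, with an unadjusted p of 0.00224 and an adjusted p of 0.509 by limma over 12713 genes, so it failed the correction.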

How the results depend on the processing

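The 22 calls of members were recomputed under the alternatives. Of 214 values under other settings 198 stayed called, 14 were lost and 2 reversed, and with 1 array left out 153 of 204 stayed called and 51 were lost. The count of members called after PMSG in Pik3cd-/- ovaries, 1, was 2 with only the groups compared, 0 with the most variable probe set and 2 with array weights. After E2 in Pik3cd+/- ovaries, 1 became 3 with only the groups compared and 5 with array weights. Between untreated genotypes, 0 became 1 with quantile normalization, the most variable probe set or array weights. After E2 the genotype count of 6 was 0 with only the 6 arrays compared, where 97 of all genes were called against 2141. For the difference of PMSG effects, 0 became 3 with array weights. With 1 array left out, counts ran from 3 to 4 for PMSG in Pik3cd+/-, 0 to 1 for PMSG in Pik3cd-/-, 0 to 1 for E2 in Pik3cd+/- and 0 to 1 for untreated genotypes. They ran from 0 to 3 between genotypes after PMSG, 3 to 7 after E2 and 5 to 7 in the average. The share of all genes called moved as well. It ran from 6.85% to 18.9% for PMSG in Pik3cd+/-, 0.676% to 3.03% for PMSG in Pik3cd-/- and 0.259% to 0.865% for E2 in Pik3cd+/- ovaries. Between genotypes it ran from 0.00787% to 5.32% untreated, 0.645% to 3.02% after PMSG, 5.08% to 23.3% after E2 and 20.9% to 31.1% in the average. Sesn1 reversed after E2 to 0.527 with its most variable probe set and to 0.069 on another, and in the average to 0.031. Deviations of same-numbered arrays correlated at r over 0.1 in 11 of 45 pairs, and 4 of 18 arrays correlated best with their own number. All 3 pairs passed in 1 of 15 pairs of groups, the genotypes after PMSG, where a replicate block within the PMSG arrays, added after seeing the data, kept 4 members called and gave 335 genes against 525. With the replicate block over all arrays 5 members were called in the average, against 6, Sesn1 missing the threshold at 0.0576. Over all genes, array weights gave counts for PMSG of 753 in Pik3cd-/- (304 without weights) and 6443 in Pik3cd+/- ovaries (2255), and for E2 of 3660 in Pik3cd+/- ovaries (206). Between genotypes they gave 2871 after PMSG (525), 4471 after E2 (2141) and 865 untreated (276), and 525 for the difference of PMSG effects (0). With only the groups compared the counts were 764 for E2 in Pik3cd+/- ovaries, and between genotypes 989 after PMSG, 97 after E2 and 95 untreated. Quantile normalization gave 482 for PMSG in Pik3cd-/- ovaries and 425 between untreated genotypes. For E2 in Pik3cd-/- ovaries, 7 genes became 0 to 16 over the settings. The causes of these shifts were not tested.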
